A study of Mus musculus with 6 samples.

Results

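The genes described here are 10 growth factor receptors and ligands of the mouse: the platelet-derived growth factor (PDGF) ligand Pdgfa and its receptors Pdgfra and Pdgfrb, the ERBB receptors Egfr, Erbb2 and Erbb3 with the neuregulin ligand Nrg1, the hepatocyte growth factor ligand Hgf and its receptor Met, and the receptor Axl. They were chosen by gene symbol, as named receptor tyrosine kinases and their ligands, and all 10 were found among the 27179 genes of the count table. RNA came from C2C12, an established mouse myoblast line, as 3 myoblast libraries and 3 myotube libraries, made from poly(A) RNA with a stranded kit. Myoblasts were kept below confluence in high glucose medium with 10% fetal bovine serum. For myotubes, confluent cultures were left for 3 days and received medium with 2% horse serum, insulin, transferrin, selenium and ethanolamine for 5 days; 4 mM glutamine was in both media. Serum, supplements, cell density and differentiation change together between the groups, and their parts in any difference cannot be told apart. The labels name no separate cultures behind the triplicates, so p-values reflect the spread among these libraries alone, and that spread may be technical.

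Receptor tyrosine kinases sit in the plasma membrane, pair up when a ligand binds and phosphorylate one another, which recruits adaptors and starts the RAS-ERK and PI3K pathways. In muscle, PDGF and hepatocyte growth factor are known as signals that keep precursor cells dividing or moving, and neuregulin is known from nerve, Schwann cell and muscle spindle signalling. ERBB2 has no known ligand of its own and ERBB3 has a weak kinase, so each is known to work mainly as a partner in a mixed pair. AXL, a member of the TAM family, has the vitamin K-dependent protein GAS6 as its ligand.

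Library totals ranged from 10076945 to 11723881 counts in myoblasts and from 7370169 to 8339589 in myotubes, so that 1 count was worth 0.0812 to 0.0941 counts per 1000000 (CPM) in myoblasts and 0.126 to 0.143 CPM in myotubes. Proliferation and myotube markers went with the labels. At an adjusted p of 0.05, 40.2% of all genes tested were called higher in myotubes and 39.2% lower. All 5 of 5 proliferation markers were lower in myotubes. Their summed level was 1777 to 1783 CPM in myoblasts and 137 to 146 CPM in myotubes. The myotube markers were higher in 6 of 6 cases, at 67.1 to 85.6 against 12046 to 12584 CPM. Myoblast lineage markers did not mark the myoblasts: of 5 tested, 2 were higher and 3 lower in myotubes (median log2 change −0.08). Their summed level was 2521 to 2604 CPM in myoblasts and 5077 to 5284 CPM in myotubes. Endothelial markers summed to at most 1.71 CPM in any library, and the Schwann cell factor Sox10, the macrophage marker Adgre1 and the endothelial receptor Tie1 had 0 counts in all 6. Fewer cells of a type and less RNA per cell cannot be told apart in such bulk samples, and the labels do not say how many cells had fused.

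Most of the 10 genes were lower in myotubes, while Erbb3 rose steeply. The summed level of the 10 genes was 1223 ± 30.1 CPM in myoblasts and 744 ± 15.6 CPM in myotubes (SD, n = 3). Of the 10 genes, 7 were lower and 3 higher in myotubes at an adjusted p of 0.05, where 79.5% of all 12800 genes tested were called, 39.2% lower and 40.2% higher. Past 2-fold, 4 of the 10 were called, against 21.6% of all genes: Erbb3 was higher (12.4% of all genes), and Axl, Pdgfrb and Nrg1 were lower (9.2%). The median log2 change (myotubes over myoblasts) of the 10 was −0.93, and that of all genes tested 0.02. For 9 of the 10, all but Pdgfa, no myoblast value reached into the myotube range, which held for 80.5% of the genes tested. Scaling to total counts shifted the median of all genes by −0.15, and then 1 of the 10 was higher and 7 lower, with Egfr and Erbb2 no longer called.

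**Figure D1:**
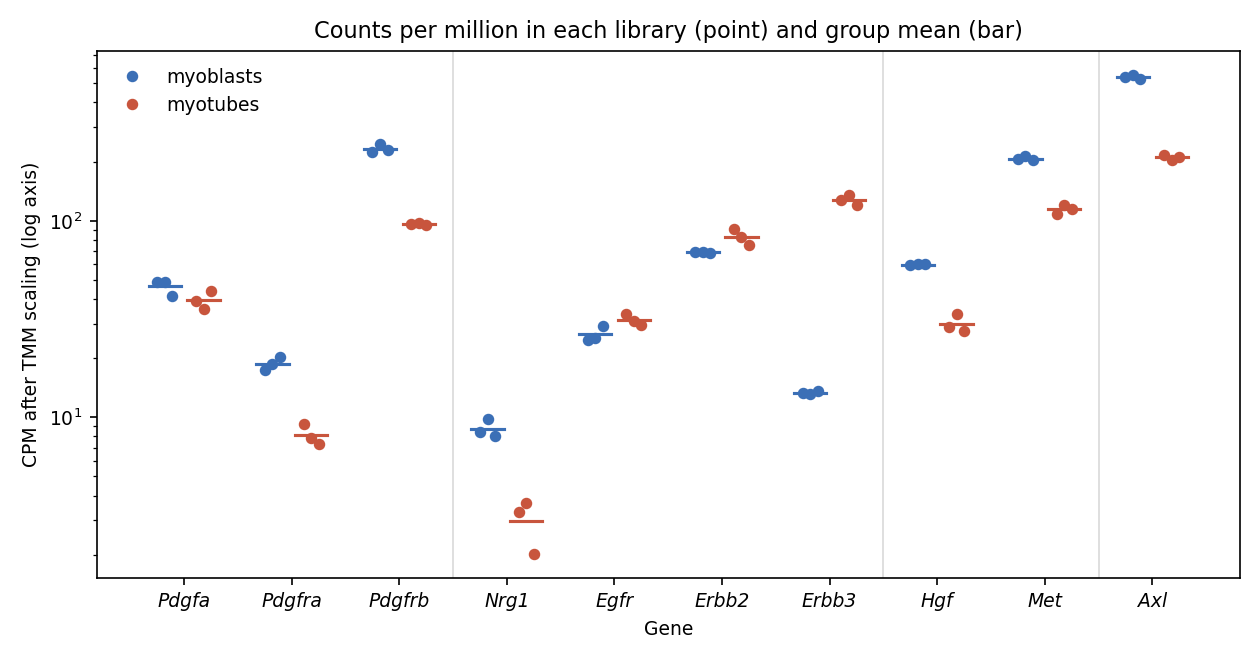
CPM after TMM scaling (log axis) of the 10 genes in each of the 3 myoblast (blue) and 3 myotube (red) libraries, with the group mean as a bar. Erbb3 stands at 13.2 to 13.5 CPM in myoblasts and 121 to 135 CPM in myotubes, while Axl, Pdgfrb, Met, Hgf, Pdgfra and Nrg1 sit lower in all myotube libraries.

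Among the PDGF genes, both receptors fell and the ligand changed little. Pdgfrb, the receptor that binds PDGF-BB and marks pericytes and other mesenchymal cells (chr18:61045127-61085067 in GRCm38), had 223, 245 and 228 CPM in the myoblast libraries and 95.8, 97.1 and 95.4 CPM in the myotube libraries. All 3 myotube libraries lay within 2 CPM of one another and far below the myoblast range, at 41.4% of the myoblast mean (log2 change −1.27, SE 0.05, adjusted p = 1.84e-18). Pdgfra, the receptor for PDGF-AA and a marker of fibro-adipogenic progenitors in muscle (chr5:75151322-75198206), was much scarcer, at 17.4, 18.7 and 20.2 CPM in myoblasts and 9.26, 7.84 and 7.32 CPM in myotubes. Its myotube values were below all myoblast values, at 43.4% of the myoblast mean (log2 change −1.21, SE 0.12, adjusted p = 2.00e-09). A fall of more than 2-fold was not called for it (adjusted p = 0.0735), but was in 4 of 11 alternatives: with total counts (adjusted p = 0.00548), with no filter (adjusted p = 0.0408), and when library 1 of the myoblasts (adjusted p = 0.0439) or library 1 of the myotubes (adjusted p = 0.0289) was left out, with a range of 0.00548 to 0.261. Antisense transcripts share 6.21% of its exon bases, and it is not stated whether counting used strand, which leaves its level uncertain.

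Other fibroblast and fibro-adipogenic markers were higher in myotubes. Of 7 such markers 6 were tested and all 6 were higher in myotubes, where 40.2% of all genes tested were called higher. Their summed level was 226 to 247 CPM in myoblasts and 612 to 696 CPM in myotubes. Most of that sum was Ly6a (186 ± 10.3 to 310 ± 20.7 CPM), Dcn and Cd34 (41.0 ± 3.15 to 91.2 ± 8.79 CPM). Pi16, Dpt and Col15a1 stood at only 6.78, 5.69 and 3.55 CPM in myotubes. None of the 7 was at 0 counts in all libraries, and the proteoglycan gene Dcn went from 6.92 ± 0.864 to 237 ± 15.7 CPM. Their part in the level of Pdgfra was not tested.

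No difference between the falls of Pdgfra and Pdgfrb was resolved. The log2 ratio of Pdgfra to Pdgfrb counts within a library, which does not depend on library scaling, was −3.68, −3.71 and −3.49 in myoblasts and −3.36, −3.62 and −3.69 in myotubes. The ranges overlap, and the difference of 0.07 changed sign without myotube library 1, to −0.03 (exact two-sided permutation test over libraries, p = 0.6, adjusted p = 0.75 over 5 ratios; 3 against 3 libraries cannot go below 0.1). Per kilobase of annotated exon, Pdgfrb made up 95.8 ± 0.337% of the summed level of these 2 receptors in myoblasts and 95.6 ± 0.527% in myotubes.

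Pdgfa, which encodes the A chain of PDGF (chr5:138976014-139000792), had 48.6, 48.9 and 41.6 CPM in myoblasts and 38.9, 35.7 and 43.8 CPM in myotubes. The third myotube library exceeds the third myoblast library, so the groups overlap, although the gene was called lower (log2 change −0.23, SE 0.08, adjusted p = 0.00964). The call was lost when library 2 of the myoblasts was left out (adjusted p = 0.0569), and likewise for library 2 of the myotubes (adjusted p = 0.0871), with a range over 13 alternatives of 0.000105 to 0.0871. Pdgfa shares 26.1% of its exon bases with a transcript of the opposite strand, so its level is uncertain in the same way. The log2 ratio of Pdgfa to its receptor Pdgfra was 1.30 ± 0.23 in myoblasts and 2.27 ± 0.27 in myotubes. The difference was 0.97 with no overlap (exact permutation p = 0.1, the smallest possible, adjusted p = 0.167). Pdgfa itself did not rise, and the fall of Pdgfra was larger (log2 change −1.21). The antisense overlap of both genes leaves this ratio uncertain too.

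The other PDGF ligands did not fall, where 39.2% of all genes tested were called lower and 40.2% higher. Of 3 tested, 2 rose: Pdgfd, a ligand of the beta receptor, from 10.9 ± 0.537 to 23.8 ± 2.36 CPM (log2 change 1.12, adjusted p = 5.53e-10), and Pdgfb from 9.50 ± 0.568 to 19.3 ± 3.84 CPM (log2 change 1.01, adjusted p = 1.05e-07). Pdgfc, named after its values were seen, had 85.6 ± 3.38 and 90.9 ± 5.87 CPM and was not called (log2 change 0.09, adjusted p = 0.143).

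Among the ERBB receptors, Erbb3 rose steeply while Egfr and Erbb2 moved little. Erbb3 (chr10:128567523-128589635) had 13.4, 13.2 and 13.5 CPM in the myoblast libraries and 128, 135 and 121 CPM in the myotube libraries. The groups are far apart, the myotube mean being 9.57 times the myoblast mean (log2 change 3.26, SE 0.07, adjusted p = 1.27e-23, and adjusted p = 7.73e-21 against a 2-fold change). The size of this change exceeds that of 94.1% of the genes tested, and it was 3.11 to 3.30 over the 13 alternatives. ERBB3 is also a neural crest and Schwann cell receptor. Of 5 Schwann cell markers only 2 were tested, of which 1 was higher and 1 lower. Over all genes tested 40.2% were called higher and 39.2% lower. The summed level of the 5 markers was 2.96 to 5.65 CPM in myoblasts and 6.56 to 6.89 CPM in myotubes, and Sox10 was at 0 counts in every library.

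Erbb2, the partner receptor (chr11:98412484-98437716), had 69.7, 69.2 and 68.7 CPM in myoblasts and 91.1, 83.1 and 74.9 CPM in myotubes. Every myotube library was above every myoblast library, and the myotube libraries spread more widely, with an SD of 8.07 against 0.525 CPM (log2 change 0.26, SE 0.06, adjusted p = 0.000421). Egfr, the receptor for EGF-type ligands (chr11:16752203-16913907), had 24.8, 25.4 and 29.1 CPM in myoblasts and 33.5, 31.0 and 29.5 CPM in myotubes. The highest myoblast and the lowest myotube value nearly touch (log2 change 0.25, SE 0.08, adjusted p = 0.0108). Leaving out library 1 of the myoblasts ended the Egfr call (adjusted p = 0.0626), and so did leaving out library 1 of the myotubes (adjusted p = 0.0554). With total counts in place of TMM, the log2 change was 0.10 for Egfr (adjusted p = 0.289) and 0.11 for Erbb2 (adjusted p = 0.0916). The range of adjusted p over 13 alternatives was 0.00353 to 0.289 for Egfr and 6.10e-06 to 0.0916 for Erbb2.

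The make-up of ERBB receptor mRNA differed between the groups. Per kilobase of exon, Erbb2 made up 74.5 ± 1.09% of the summed level of the 3 receptors in myoblasts and 39.9 ± 1.76% in myotubes (SD, n = 3). Erbb3 made up 12.5 ± 0.0894% and 53.2 ± 1.91%, and Egfr 13.1 ± 1.04% and 6.93 ± 0.235%. The sum went from 17.8 ± 0.151 to 40.0 ± 2.53 CPM per kilobase. With the length of the longest coding transcript in place of all annotated exons, the share of Erbb3 was 11.9 ± 0.0828% and 52.0 ± 1.91%. The fourth family member, Erbb4, a neuregulin receptor, had 0 counts in all libraries, which allows up to 0.088 CPM in myoblasts and 0.134 CPM in myotubes (3 counts over the group, counting error only).

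**Figure D2:**
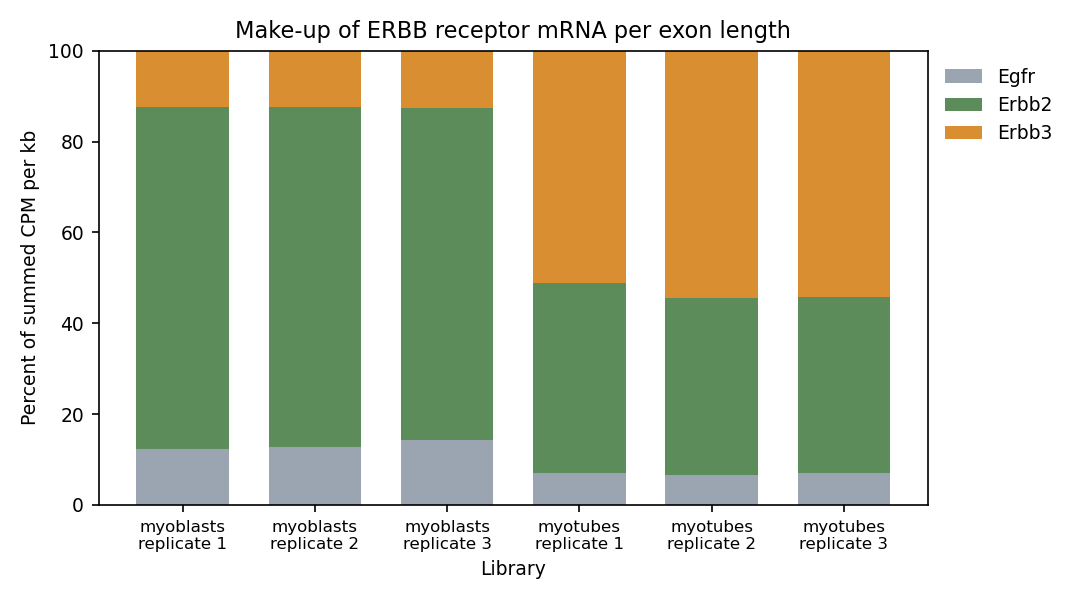
Percent of the summed CPM per kilobase of exon taken by Egfr (grey), Erbb2 (green) and Erbb3 (orange) in each of the 6 libraries. Erbb3 takes 12.4 to 12.5% in the myoblast libraries and 51.0 to 54.5% in the myotube libraries.

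Counted within libraries, the log2 ratio of Erbb3 to Erbb2 was −2.38, −2.39 and −2.34 in myoblasts and 0.49, 0.69 and 0.69 in myotubes. The ranges are far apart, and the means differ by 2.99 (exact two-sided permutation p = 0.1, the smallest possible, adjusted p = 0.167). The log2 ratio of Egfr to Erbb2 was −1.39 ± 0.13 in myoblasts and −1.40 ± 0.05 in myotubes, a difference of −0.01 (exact permutation p = 1). Leaving out each library in turn gave differences from −0.06 to 0.07 for that ratio and from 2.96 to 3.06 for Erbb3 to Erbb2.

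Nrg1, the neuregulin gene whose products bind ERBB3 and ERBB4 (chr8:31807452-32891609), fell while Erbb3 rose. It had 8.44, 9.83 and 7.998 CPM in myoblasts and 3.28, 3.65 and 2.02 CPM in myotubes. All myotube values were below all myoblast values, at 34.1% of the myoblast mean (log2 change −1.57, SE 0.20, adjusted p = 6.91e-08), and a fall past 2-fold was called (adjusted p = 0.00589). It was the scarcest of the 10 genes, with a summed 300 counts in myoblasts and 66 in myotubes, and it has the largest SE of the 10. An antisense transcript shares 4.66% of its exon bases. Without myotube library 3 the log2 change was −1.34 and the call past 2-fold was lost (adjusted p = 0.0853, range over 11 alternatives 0.000908 to 0.0853).

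The EGF-type ligands, most of which bind EGFR, were mostly lower. Of the 11 other ERBB ligands and receptors 5 were tested, of which 1 rose and 4 fell, with a median log2 change of −1.09, where 40.2% of all genes were called higher and 39.2% lower. With no filter on low counts 2 were called higher and 5 lower. Areg (amphiregulin) fell from 13.1 ± 0.275 to 2.9998 ± 0.612 CPM (log2 change −2.12, adjusted p = 1.06e-11) and Btc (betacellulin) from 4.44 ± 0.198 to 1.81 ± 0.514 CPM (log2 change −1.30, adjusted p = 3.09e-05). Ereg and Hbegf, named after their values were seen, fell by 1.09 and 0.93 on the log2 scale. Egf rose from 2.17 ± 0.105 to 5.21 ± 1.13 CPM (log2 change 1.26, adjusted p = 1.31e-05), but 9.82% of its exon bases lie in antisense transcripts, so it is uncertain. Nrg2 and Nrg3 had 0 counts in all libraries. Tgfa and Epgn (epigen), which were too low to be tested and were named after their values were seen, differed in direction: Tgfa had 47 counts in the myoblast group and 3 in the myotube group, and Epgn 3 and 15.

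Genes that restrain ERBB receptors were called in both directions. Of 9 tested, 3 rose and 5 fell (median log2 change −0.35), or 1 and 6 when scaled to total counts. For this list and the sheddases below, the shares over all genes tested were 40.2% higher and 39.2% lower. The ERBB kinase inhibitor Errfi1 fell from 228 ± 4.12 to 56.3 ± 3.17 CPM (log2 change −2.02, adjusted p = 3.43e-22) and the ubiquitin ligase Cbl by 0.63 on the log2 scale. Lrig1, which promotes the loss of ERBB receptors, and its relative Lrig2 had log2 changes of 0.49 and 0.28, and Lrig2 lost its call with total counts (adjusted p = 0.0746, range over 13 alternatives 0.000320 to 0.0746). Of 9 sheddases and their cofactors or inhibitors, which control the release of ligands from the membrane, 3 rose and 4 fell (median −0.02; 2 and 5 with total counts). Adam19, a protease known to process neuregulin, rose from 113 ± 4.17 to 304 ± 2.67 CPM (log2 change 1.42, adjusted p = 1.62e-20), with 15% of its exon bases shared with antisense transcripts. Rhbdf2, a cofactor of ADAM17, rose by 0.89, while Adam12 fell by 0.43 and the inhibitor Timp3, with 21.3% of exon bases antisense to another gene, by 0.21.

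Hgf and its receptor gene Met were both lower in myotubes. Hgf, a ligand first known as a liver growth factor and later as an activator of quiescent muscle precursors (chr5:16553495-16619439), had 59.3, 60.2 and 59.9 CPM in myoblasts and 28.8, 33.5 and 27.4 CPM in myotubes. Each myotube library lay below all myoblast libraries, at 49.97% of the myoblast mean (log2 change −1.002, SE 0.07, adjusted p = 1.95e-12), and a change beyond 2-fold was not called (adjusted p = 0.855, range over 11 alternatives 0.0305 to 1), except with total counts (adjusted p = 0.0305). Another annotated gene on its strand shares 6.74% of its exon bases. Met, its receptor (chr6:17463349-17573980), had 205, 213 and 203 CPM in myoblasts and 109, 121 and 115 CPM in myotubes, again with no overlap and at 55.3% of the myoblast mean (log2 change −0.85, SE 0.05, adjusted p = 5.64e-15).

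The log2 ratio of Hgf to Met counts was −1.79, −1.82 and −1.76 in myoblasts and −1.91, −1.85 and −2.06 in myotubes. The groups do not overlap, but the difference of −0.15 is close to the spread of the myotube libraries, whose SD was 0.11 (exact two-sided permutation p = 0.1, adjusted p = 0.167). Without myotube library 3 it was −0.09.

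Of 11 genes of HGF activation and the MET relative Mst1r, 5 were tested, with 1 higher and 4 lower (median log2 change −1.32). The shares over all genes tested were 40.2% higher and 39.2% lower. Spint1, which encodes an inhibitor of the proteases that activate HGF, fell from 10.3 ± 1.24 to 0.903 ± 0.240 CPM (log2 change −3.51, adjusted p = 8.34e-13); it had 20 counts in the myotube group. Plaur, the urokinase receptor, fell from 81.8 ± 1.72 to 15.3 ± 0.567 CPM (log2 change −2.42, adjusted p = 2.09e-20), while urokinase itself (Plau) rose by 0.26 (adjusted p = 7.46e-06). The proteases Hgfac, St14 and Hpn, named after their values were seen, had at most 6 counts in either group.

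Axl (chr7:25756500-25788924) was the most abundant of the 10 genes in both groups and also fell. It had 539, 554 and 529 CPM in myoblasts and 217, 204 and 210 CPM in myotubes. Each group was tight and the groups lay far apart, the myotube mean being 38.9% of the myoblast mean (log2 change −1.36, SE 0.04, adjusted p = 1.45e-20, and adjusted p = 1.81e-09 against a 2-fold change). The other TAM genes, which include the AXL relatives and ligands, were lower in 4 of 4 cases (median log2 change −1.04), where 39.2% of all genes were called lower. Tyro3 fell from 30.1 ± 1.10 to 9.29 ± 2.17 CPM (log2 change −1.70, adjusted p = 9.57e-13) and Mertk, which is also a macrophage receptor, from 16.3 ± 2.23 to 5.33 ± 1.28 CPM (log2 change −1.63, adjusted p = 7.87e-10). The ligand genes Gas6 and Pros1, named after their values were seen, fell by 0.45 and 0.33. Gas6 (adjusted p = 0.0206) lost its call in the DESeq2 Wald test (adjusted p = 0.0683) and when library 2 of the myoblasts (adjusted p = 0.0719) or of the myotubes (adjusted p = 0.194) was left out, with a range over 13 alternatives of 0.00292 to 0.194. Of the 5 macrophage markers 2 were tested and 1 was higher, where 40.2% of all genes tested were called higher. The 1 called was Itgam, named after its values were seen, with 2 counts in the myoblast group and 51 in the myotube group (log2 change 5.00, adjusted p = 1.03e-08). The summed level of the 5 markers was 1.88 to 2.42 CPM in myoblasts and 3.71 to 4.67 CPM in myotubes.

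**Figure D3:**
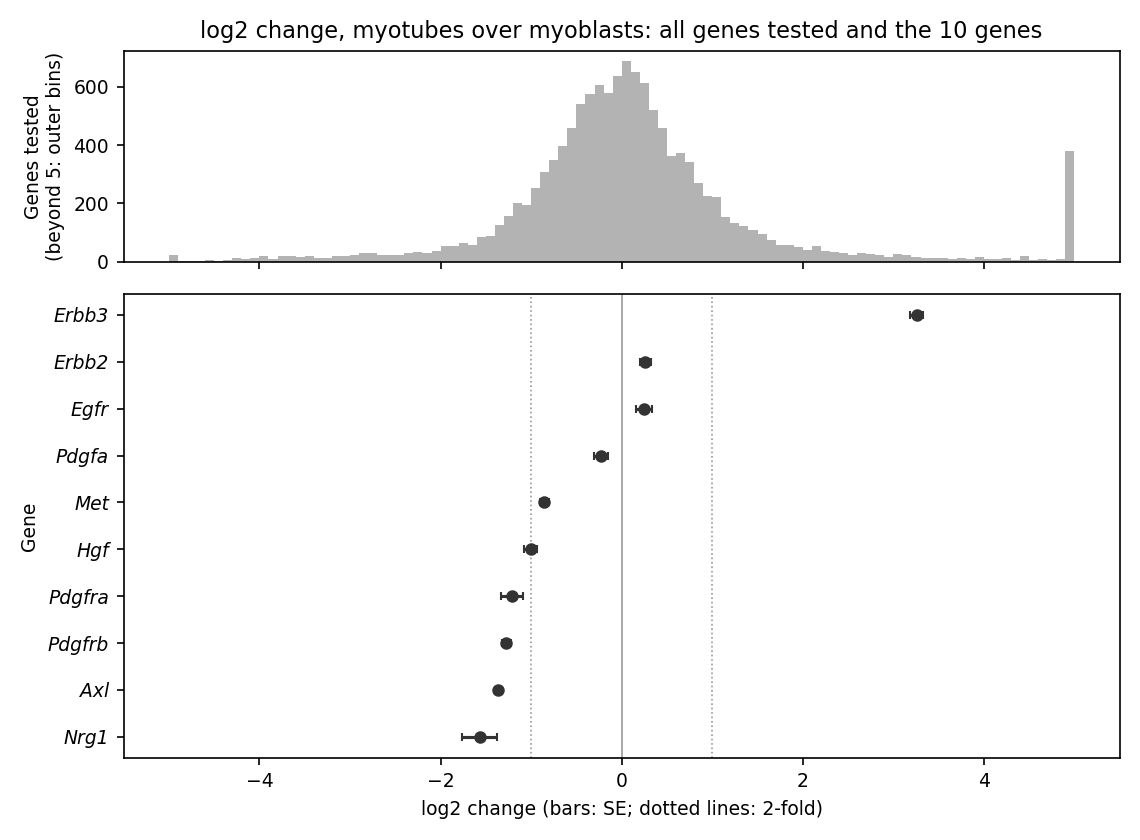
Top, number of the 12800 genes tested by log2 change of myotubes over myoblasts. Bottom, the log2 change of each of the 10 genes with its SE; dotted lines mark a 2-fold change. Erbb3 lies at 3.26, and the 7 genes that were lower lie between −1.57 and −0.23.

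Sequence before an annotated start is shown for 3 receptors that moved in different directions, Axl and Met, which fell, and Erbb2, which was slightly higher. The sequences are the 250 bases before a RefSeq start of each gene (GRCm38.p6), written 5′ to 3′ on the strand of the gene, with matches to the E-box motif CANNTG in capitals. Of the 10 genes 7 matched a promoter entry; Pdgfrb, Erbb3 and Nrg1 did not. These genes can have several annotated starts: the window of Met lies wholly inside the gene range given above and 191 of the 250 bases of that of Axl do, while that of Erbb2 lies wholly before the gene.
Axl chr7:25788734-25788983 (minus strand): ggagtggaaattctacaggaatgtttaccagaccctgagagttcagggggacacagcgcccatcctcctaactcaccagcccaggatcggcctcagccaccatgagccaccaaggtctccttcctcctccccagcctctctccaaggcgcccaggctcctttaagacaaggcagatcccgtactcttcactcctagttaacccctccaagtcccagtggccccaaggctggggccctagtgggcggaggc
Met chr6:17463707-17463956 (plus strand): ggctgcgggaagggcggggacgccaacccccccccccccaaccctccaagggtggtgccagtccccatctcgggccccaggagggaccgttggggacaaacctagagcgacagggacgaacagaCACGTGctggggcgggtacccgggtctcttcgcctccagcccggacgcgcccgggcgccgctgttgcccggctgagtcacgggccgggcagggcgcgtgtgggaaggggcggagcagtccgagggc
Erbb2 chr11:98412234-98412483 (plus strand): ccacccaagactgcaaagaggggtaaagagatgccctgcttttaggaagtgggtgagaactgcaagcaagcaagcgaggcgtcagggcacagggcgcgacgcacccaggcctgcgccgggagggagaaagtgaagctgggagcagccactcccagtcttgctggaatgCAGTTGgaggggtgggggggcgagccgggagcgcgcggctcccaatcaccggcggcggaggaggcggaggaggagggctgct
On both strands, CANNTG occurred 0 times in the Axl window, 1 time in that of Met and 1 time in that of Erbb2, and 66.2% of the 32851 windows of the same length hold it. The GC-box motif GGGCGG, also on both strands, occurred 1, 3 and 0 times, against 32.7% of windows with it. The motif CAGCTG, a form of CANNTG, was in none of the 3 windows and in 13% of all windows. These matches describe the sequence only.

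Between genes, levels can be compared only per length. In CPM per kilobase of annotated exon, the order in myoblasts was Axl (107 ± 2.46), Pdgfrb (42.4 ± 2.08), Met (27.0 ± 0.656), Pdgfa (14.9 ± 1.32), Erbb2 (13.3 ± 0.101), Hgf (8.33 ± 0.0654), Egfr (2.33 ± 0.205), Erbb3 (2.22 ± 0.0329), Pdgfra (1.87 ± 0.141) and Nrg1 (0.846 ± 0.0922). Egfr and Erbb3 did not differ beyond their spread there, and neither did Pdgfa and Erbb2, whose library values met. In myotubes Axl still led at 41.8 ± 1.25, and Erbb3 came next at 21.3 ± 1.16, ahead of Pdgfrb (17.5 ± 0.160), Erbb2 (15.9 ± 1.55), Met (14.9 ± 0.770) and Pdgfa (12.7 ± 1.31). The library values of Pdgfrb and Erbb2 overlapped, as did those of Erbb2 and Met, and those of Met lay just above those of Pdgfa. Hgf (4.16 ± 0.448), Egfr (2.77 ± 0.178), Pdgfra (0.812 ± 0.101) and Nrg1 (0.288 ± 0.0826) followed. With the length of the longest coding transcript, Axl again led in myotubes and Pdgfa moved from rank 6 to rank 3, at 19.2 ± 1.98 beside 21.3 ± 1.16 for Erbb3. The library values of those 2 overlapped (17.3 to 21.3 for Pdgfa, 20.1 to 22.4 for Erbb3), so their order is not resolved by that length. Those of Pdgfrb (17.6 to 17.9) also lay within the range of Pdgfa. In myoblasts that length put Hgf (17.25 ± 0.136) above Erbb2 (13.8 ± 0.105). Pdgfra (2.75 ± 0.207) then stood beside Egfr (2.59 ± 0.227) and above Erbb3 (2.22 ± 0.0329).

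Downstream of the receptors, adaptor and kinase genes were called in both directions, with list medians near that of all genes. Calls over all genes tested were 40.2% higher and 39.2% lower. Of 18 adaptors and proximal effectors 17 were tested, of which 8 rose and 7 fell (median log2 change −0.06; 3 and 9 with total counts). The docking protein gene Gab2 rose from 14.1 ± 1.68 to 50.4 ± 1.82 CPM (log2 change 1.85, adjusted p = 2.90e-16) and the transcription factor Stat3 by 1.07, while the kinase Src fell by 1.27 and the RAS-inactivating protein gene Rasa1 by 1.26; Gab2, Src and Rasa1 were called beyond 2-fold. Of 12 genes of the RAS-RAF-ERK cascade 5 rose and 4 fell (median −0.09; 3 and 6 with total counts). Araf rose by 1.09 and Map2k1, which encodes MEK1, by 0.43, whereas Mapk3, which encodes ERK1, fell by 0.68.

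Genes known as feedback regulators or transcriptional outputs of ERK were mostly lower. Of 11 tested, 1 rose and 7 fell, with a median log2 change of −0.86 beside 0.02 for all genes tested (1 and 8 with total counts). Over all genes 40.2% were called higher and 39.2% lower, so the called share of the list, 8 of 11, was not above the 79.5% of all genes. Past 2-fold 5 of the 11 fell, against 9.2% of all genes. The ETS factor gene Etv4 fell from 65.8 ± 0.977 to 8.25 ± 1.57 CPM (log2 change −3.00, adjusted p = 6.96e-20) and the MAP kinase phosphatase gene Dusp4 from 95.8 ± 2.18 to 13.01 ± 1.46 CPM (log2 change −2.88, adjusted p = 1.75e-21). Etv5, a close relative of Etv4, rose from 11.7 ± 1.25 to 19.0 ± 1.14 CPM (log2 change 0.71, adjusted p = 2.74e-06), but 26.8% of the 50-base windows of its transcript have an exact copy in a pseudogene. Dusp5, Phlda1 and Spred2, named after their values were seen, fell by 2.58, 1.18 and 1.16. The proliferation markers fell in the same libraries, and their part in these changes was not tested.

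**Figure D4:**
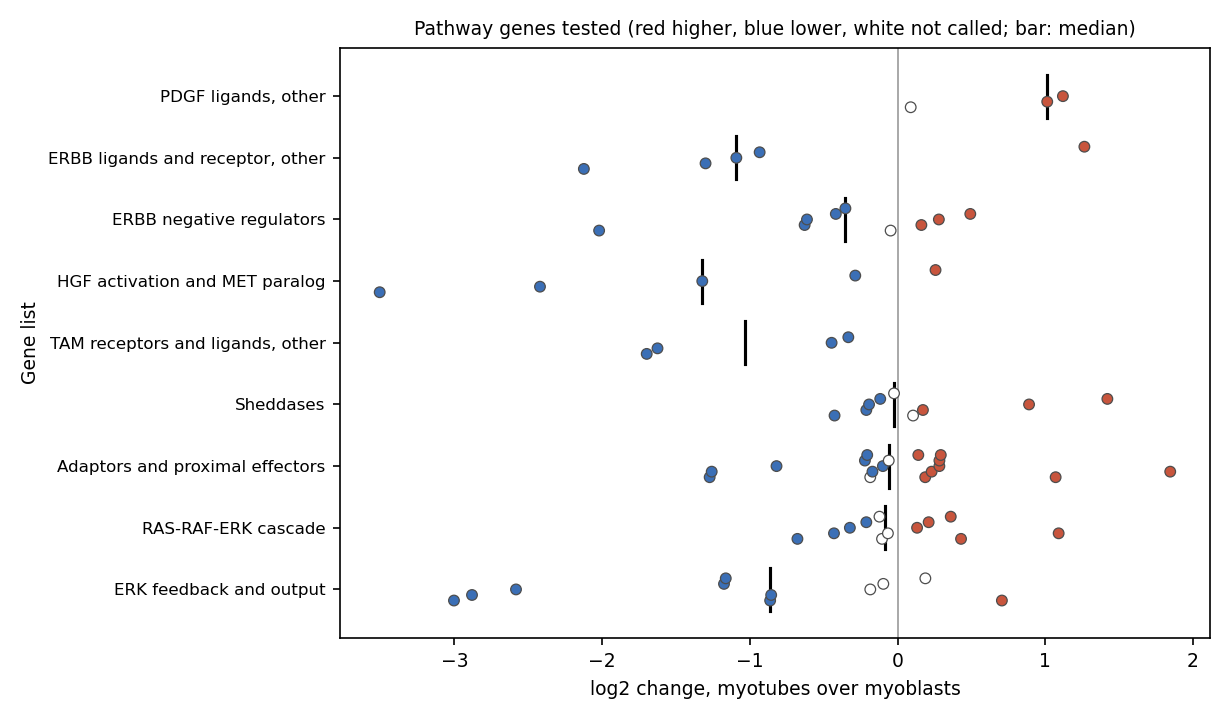
log2 change of myotubes over myoblasts for each tested gene of the 9 pathway lists (red called higher, blue called lower, white not called), with the list median as a bar. The lists of ERK feedback, TAM genes, HGF activation and ERBB ligands have medians between −1.32 and −0.86, and the PDGF ligands one of 1.01.

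Over all 9 pathway lists, 75 of 88 genes were tested, 24 rose and 39 fell (median −0.18). Among all genes tested 79.5% were called, 40.2% higher and 39.2% lower. With scaling to total counts 14 rose and 46 fell. Of the 39 genes chosen by the naming rule, the 10 growth factor genes and 29 pathway genes, 3 lost their call under that scaling and 0 changed direction.

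The genes with the profile nearest to the gene that rose most and to the one that fell most were looked up over the 6 libraries, by Euclidean distance between centred log2(CPM + 1) values. For Erbb3 these were H19 (distance 0.128), an imprinted non-coding RNA, Cacng6 (0.149), a calcium channel subunit, and Cdh13 (0.155), a cadherin. Cacng6 had 0 counts in myoblasts and 7.54 CPM in myotubes, so its nearness rests on the added 1 CPM, while Cdh13 went from 37.9 to 349 CPM. For Nrg1 they were Tagln (0.193), an actin-binding protein, Ifitm1 (0.210) and Dhrs13 (0.219). With only 2 groups, such nearness mainly reflects the size of the change.

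**Figure D5:**
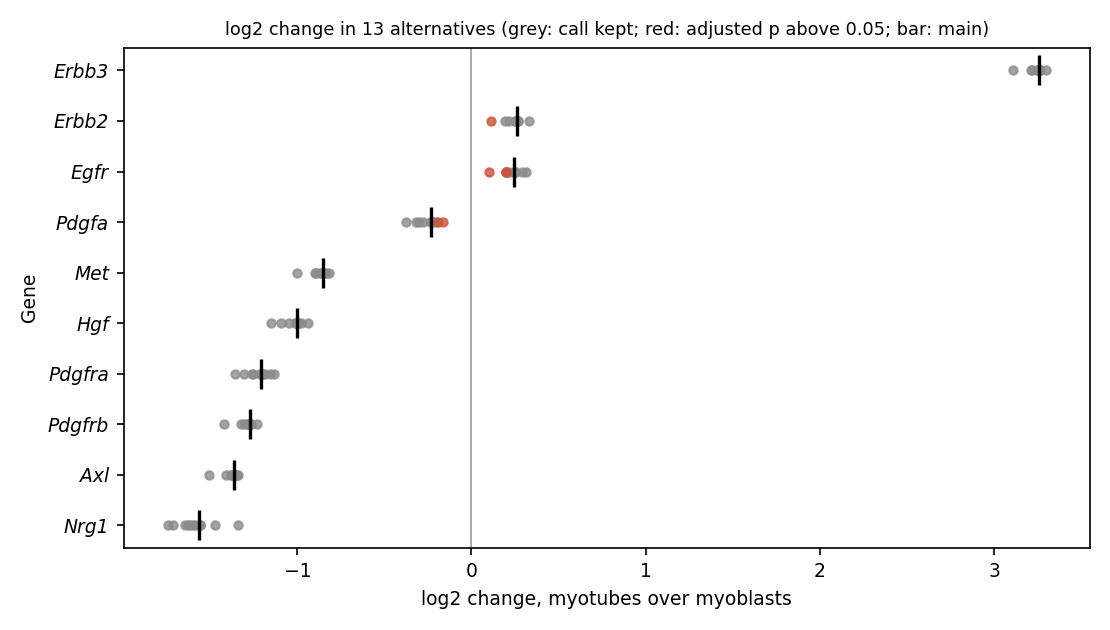
log2 change of myotubes over myoblasts for each of the 10 genes in 13 alternatives of scaling, test, filter, block or left-out library, with the reported value as a bar. No gene crosses 0; the red points, where the adjusted p is above 0.05, belong to Egfr, Erbb2 and Pdgfa.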

How the data were processed

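The table the authors deposited holds unnormalized read counts by Entrez ID and symbol, in 6 library columns. The submitters' processing notes name fastp, STAR, featureCounts and mm10; for versions, strand setting and reads with several matches, nothing is given in the sources used here. Columns were matched to samples by name, and groups come from the sample titles. Replicates differed beyond sampling noise (chi-square of 1.35 to 3.22 per degree of freedom over genes), and each library was 1 sample.

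Counts were tested with edgeR 4.0.16 in R 4.3.3 over the 12800 genes kept by filterByExpr (minimum count 10, minimum total 15), with TMM scaling, the robust quasi-likelihood F test, glmTreat for a 2-fold change and Benjamini-Hochberg adjustment over all genes tested at 0.05. CPM are after TMM scaling. SE is the size of the log2 change over the root of F, and is too small where counts are few. The edgeR, limma-voom and DESeq2 fits were run on simulated data with known changes. The other scalings and filters, the block, left-out libraries, 2-fold calls and ratio tests were not. Ratios used counts plus 0.5. Alternatives used DESeq2 1.42.0, limma 3.58.1, other filters and scalings, the replicate number as a block and leaving out each library. Coordinates come from the RefSeq table of GRCm38, and exon lengths, antisense overlap and 50-base copies from GENCODE M21, by Python 3.11.15. Of genes in the pathway lists, named were the 2 largest increases and 2 largest decreases among those called at a mean of at least 1 CPM. Some genes are not reported here. The genes and lists were chosen with earlier results of these data known.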

Additional observations from a re-analysis of the deposited data

How the results depend on the processing

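Over 13 alternatives of test, scaling, filter, block and left-out library, 8 to 10 of the 10 genes were called, and 3 to 6 were called beyond 2-fold in the 11 alternatives that allow that test. Genes called ranged from 9496 to 11105 over all genes and from 59 to 67 in the pathway lists. Of 130 values of the 10 genes, 124 kept direction and call, 6 lost the call and 0 changed direction; of 377 values of the 29 pathway genes chosen by the naming rule, 376 kept both. With each library left out in turn, the difference of the log2 ratio ranged from −0.028 to 0.14 for Pdgfra over Pdgfrb and from −0.061 to 0.065 for Egfr over Erbb2, so both changed sign. The replicate block called 10161 genes against 10170, and the same 10 of 10; same-numbered libraries did not deviate together (correlations of −0.0018, 0.0106 and 0.0004 across genes), and the block changed no call of the 10. Depth limits Nrg1, with 66 counts in the myotube group, most. Intervals for low counts cover counting error only.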

Other observations

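Other receptor tyrosine kinases, listed after the values above were seen, were called in both directions, and the count depended on the scaling. Of 17 such genes 8 were tested; 5 were higher and 2 lower in myotubes by edgeR's quasi-likelihood test, with a median log2 change of 0.18, where 40.2% of all genes were called higher and 39.2% lower. Scaled to total counts, an alternative chosen after seeing the data, 2 were higher and 2 lower (median 0.04), and Ddr1, Ddr2 and Ryk were not called (adjusted p = 0.985, 0.121 and 0.123). The collagen receptors Ddr1 and Ddr2 had log2 changes of 0.15 and 0.23 (adjusted p = 0.00475 and 0.000104), and the Wnt receptor Ryk one of 0.22 (adjusted p = 5.44e-05). Ret, the receptor for GDNF-family ligands, went from 13.1 ± 0.586 to 26.4 ± 7.11 CPM (SD, n = 3; adjusted p = 6.76e-05), and the scarce Ror1 from 0.776 ± 0.355 to 2.57 ± 0.714 CPM. Flt1, a VEGF receptor, fell from 8.10 ± 1.15 to 1.46 ± 0.557 CPM (log2 change −2.49, adjusted p = 6.69e-10), and Ptk7 fell by 0.55. Kit, Flt4 and Ntrk2 had 0 counts in all 6 libraries.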
